A study of Mus musculus with 6 samples.

Results

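The keratin family of the mouse comprises the type I and type II keratins (Krt genes) and the keratin-associated proteins (Krtap genes). The genes described here are those whose symbol in the probe annotation of the Dnmt1-KO arrays begins with Krt, older symbols included. They number 66 of the 17601 genes annotated on the arrays, 41 keratins and 25 keratin-associated proteins. For 63 of them, all 41 keratins and 22 keratin-associated genes, a promoter window of 6 neighbouring probes could be set at the annotated start, and 16956 genes in all had such a window. Krtap5-2 and the genes whose symbols in the file are Krtap16-3 and Krtap16-7 had no window. Krtcap2 and Krtcap3 also begin with Krt, encode proteins that are not keratins and were left out. A further 14 genes that RefSeq now names Krt or Krtap carried other symbols in the annotation and are not members.

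Binding of Rybp to promoters was measured by chromatin immunoprecipitation and array hybridisation (ChIP-chip). The cells were mouse embryonic stem (ES) cells with a constitutive knockout of Eed (Eed-KO), with a constitutive knockout of Dnmt1 (Dnmt1-KO), and wild type (WT). Rybp belongs to variant forms of Polycomb repressive complex 1, Eed is needed by the complex that methylates lysine 27 of histone H3, and Dnmt1 maintains methylation of CpG dinucleotides. All 3 genotypes were cultured with serum and leukaemia inhibitory factor on feeder fibroblasts (irradiated) or gelatin, which of them is not stated, fixed with formaldehyde and precipitated with the same anti-Rybp antibody, and the precipitated DNA (IP, Cy5) was hybridised against input (Cy3), both after linear amplification by T7 RNA polymerase. The promoter set has 2 array designs with different probes, so 6 arrays gave 1 measurement per genotype and promoter, with no replicate and no test. The level of a promoter is the mean over the 6 probes nearest its start of log2 IP over input, set to 0 at the median probe of each array. The ± after a level is the SD over those 6 probes, and the ± after a difference is the SE over them, which covers probe scatter and nothing between cultures or hybridisations. A promoter counts as bound at a level of at least 1, a 2-fold enrichment, and as higher or lower at a difference from WT of at least 1 in size.

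Keratins form the intermediate filaments of epithelial cells, as pairs of 1 type I and 1 type II protein. Simple epithelia, such as those lining the gut, use Krt8 with Krt18, and the basal layer of stratified epithelia uses Krt5 with Krt14. Hair and nails are built from hair keratins that are cross-linked by keratin-associated proteins, small proteins rich in cysteine or in glycine and tyrosine. Type I and type II genes lie in a cluster each, and Krt18, a type I gene, sits beside Krt8 in the type II cluster. Krt8 and Krt18 are the first keratins made in the mouse embryo.

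The promoters of Krt18 and Krt8, neighbouring partner genes with unlike CpG content, and of Krt34 and Krtap14, the members with the lowest levels in Dnmt1-KO cells, are shown from RefSeq's GRCm38.p6 annotation, from 250 bases before to 50 after the start, 5′ to 3′ on the gene's strand, with each CpG in capitals. That of Krt18 is chr15:102027966-102028265 on the plus strand and holds 17 CpGs. That of Krt8 is chr15:102004293-102004592 on the minus strand and holds 6. The Krt34 promoter, chr11:100041505-100041804 on the minus strand, holds 4, and the Krtap14 promoter, chr16:88826096-88826395 on the minus strand, holds 6.
Krt18 promoter: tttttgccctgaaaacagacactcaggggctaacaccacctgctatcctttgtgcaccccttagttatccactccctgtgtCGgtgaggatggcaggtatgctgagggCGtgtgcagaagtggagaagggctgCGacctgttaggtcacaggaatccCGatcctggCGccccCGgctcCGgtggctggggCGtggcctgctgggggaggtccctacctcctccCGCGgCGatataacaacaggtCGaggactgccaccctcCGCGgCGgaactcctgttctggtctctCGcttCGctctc
Krt8 promoter: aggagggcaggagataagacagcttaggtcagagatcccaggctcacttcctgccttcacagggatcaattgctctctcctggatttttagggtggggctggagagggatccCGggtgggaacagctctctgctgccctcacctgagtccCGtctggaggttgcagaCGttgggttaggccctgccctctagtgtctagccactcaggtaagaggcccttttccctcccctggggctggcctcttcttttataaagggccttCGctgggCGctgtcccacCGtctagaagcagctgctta
Krt34 promoter: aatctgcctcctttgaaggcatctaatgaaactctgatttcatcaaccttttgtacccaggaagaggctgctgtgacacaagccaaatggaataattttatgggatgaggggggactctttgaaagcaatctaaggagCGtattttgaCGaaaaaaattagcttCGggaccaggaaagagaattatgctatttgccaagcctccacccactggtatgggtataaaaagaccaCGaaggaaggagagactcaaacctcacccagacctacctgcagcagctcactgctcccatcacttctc
Krtap14 promoter: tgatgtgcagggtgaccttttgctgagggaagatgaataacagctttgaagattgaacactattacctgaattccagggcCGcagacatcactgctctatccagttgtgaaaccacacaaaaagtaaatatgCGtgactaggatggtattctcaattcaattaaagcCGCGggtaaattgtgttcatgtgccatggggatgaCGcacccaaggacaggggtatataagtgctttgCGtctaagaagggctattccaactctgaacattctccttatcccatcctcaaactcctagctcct
Of the probes on the arrays, 3 carried extreme values and are printed as deposited, CpGs in capitals. The Krt19 probe lies at chr11:99961521-99961568 in the array annotation, for which the sources used here give no genome build, and was the highest of its window in Dnmt1-KO cells. The Krt34 probe, chr11:99857829-99857884, was the lowest of its window in Dnmt1-KO cells, and the Krt39 probe, chr11:99336950-99336994, gave the lowest single value in WT cells.
Krt19 probe: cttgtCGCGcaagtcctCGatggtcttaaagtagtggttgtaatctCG
Krt34 probe: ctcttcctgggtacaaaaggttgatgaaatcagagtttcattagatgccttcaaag
Krt39 probe: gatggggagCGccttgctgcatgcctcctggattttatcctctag

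The arrays of the 3 genotypes differed in spread. The SD over all probes was 0.45 and 0.47 on the 2 Eed-KO arrays, 0.96 and 0.91 on the Dnmt1-KO arrays, and 0.41 and 0.42 on the WT arrays. The Dnmt1-KO files name a later version of the extraction software and another scanner model than the Eed-KO and WT files, so genotype and scanner cannot be told apart for Dnmt1-KO. In the members' windows, IP signal was not well above background at 0 of 378 probes in Eed-KO cells, at 65 (17.2%) in Dnmt1-KO cells, where the software's bar was also set higher, and at 1 in WT cells. Over all probes of the arrays the share was 0.064% in Eed-KO cells, 15.5% in Dnmt1-KO cells and 0.091% in WT cells. Occupancy is not RNA, so neither the knockouts nor the ES cell label could be checked by expression, and a share of feeder DNA and occupancy per ES cell cannot be told apart.

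Few keratin family promoters reached 2-fold Rybp enrichment in any genotype. No member was bound in Eed-KO cells, against 2% of all promoters. Of the 63 members, 4 were bound in Dnmt1-KO cells, against 34.9% of all promoters. No member was bound in WT cells, against 1.86% of all promoters. The 4 were Krt87, Krt222, Krt18 and Krt19, at 1.29, 1.24, 1.06 and 1.02, and just under the threshold lay Krt42, Krt78 and Krt17, at 0.99, 0.98 and 0.96. With the arrays set to 1 spread, 0 members were bound in any genotype, against 1.32% of all promoters in Eed-KO cells, 2.69% in Dnmt1-KO cells and 1.86% in WT cells.

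The median level over the members was -0.0028 in Eed-KO cells, -0.03 in Dnmt1-KO cells and 0.02 in WT cells. Over all promoters it was 0.11 in Eed-KO cells, 0.67 in Dnmt1-KO cells and 0.17 in WT cells. In Eed-KO cells the members spanned -0.39 to 0.62, in Dnmt1-KO cells -1.93 to 1.29 and in WT cells -0.66 to 0.54, so the widest spread was on the arrays with the widest probe values.

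**Figure D1:**
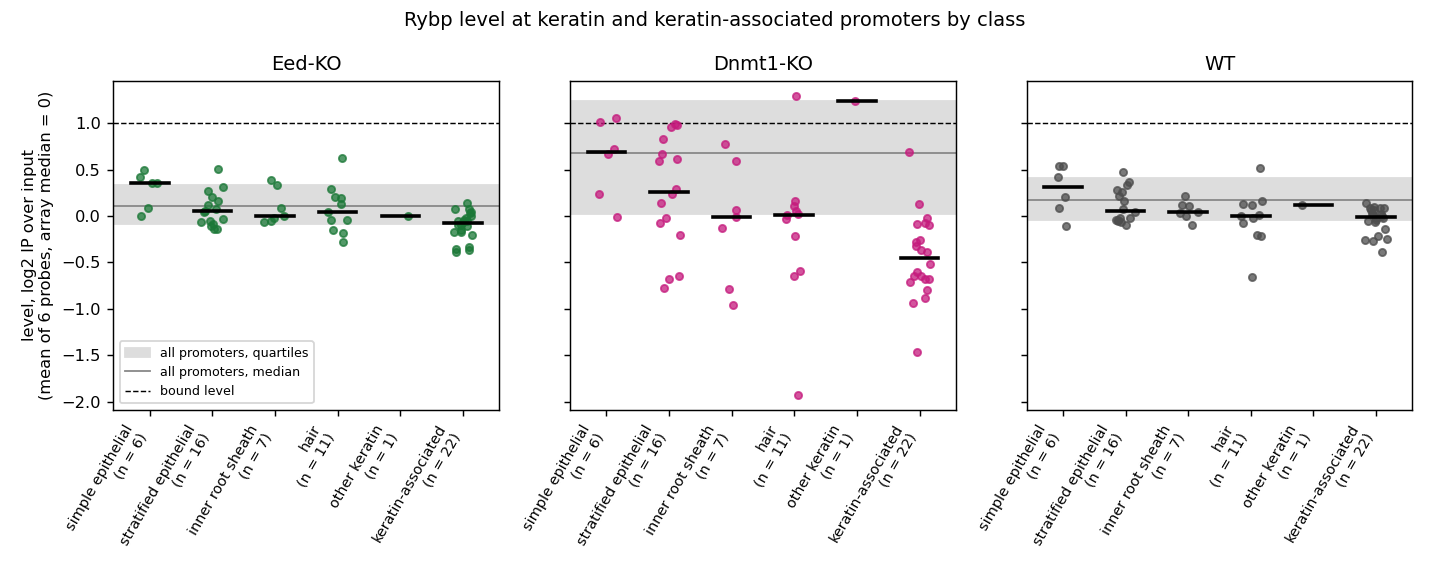
Level of each of the 63 promoters (points, mean of 6 probes, log2 IP over input) by keratin class in Eed-KO, Dnmt1-KO and WT cells, with class medians (black bars), the median and quartiles of all promoters (grey) and the bound level (dashed). The simple epithelial class has the highest median of the 5 larger classes in each genotype, at 0.35, 0.69 and 0.31, and the keratin-associated class the lowest, at -0.08, -0.45 and -0.01.

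The 6 simple epithelial keratins had the highest class median, 0.35 in Eed-KO cells, 0.69 in Dnmt1-KO cells and 0.31 in WT cells, against 0.11, 0.67 and 0.17 over all promoters. Krt18, the type I partner of Krt8, stood at 0.49 ± 0.19 in Eed-KO cells, 1.06 ± 0.48 in Dnmt1-KO cells and 0.54 ± 0.38 in WT cells. All 6 of its probes were above 0 in each genotype, and in Dnmt1-KO cells the 3 probes from 566 bp before to 24 bp before the start read 1.65, 1.40 and 1.29. The promoter printed above holds 2 of the 6 probes. Krt8, the type II partner, stood at 0.35 ± 0.22 in Eed-KO cells, 0.73 ± 0.46 in Dnmt1-KO cells and 0.21 ± 0.17 in WT cells.

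Krt7, a type II keratin of glandular and ductal epithelia, stood at 0.42 ± 0.38 in Eed-KO cells, 0.66 ± 0.62 in Dnmt1-KO cells and 0.54 ± 0.25 in WT cells, and shared the highest WT level among the members with Krt18. Krt19, a type I keratin of simple epithelia, stood at 0.35 ± 0.37 in Eed-KO cells, 1.02 ± 0.86 in Dnmt1-KO cells and 0.42 ± 0.17 in WT cells. The printed Krt19 probe, 465 bp after the start, read 0.92 in Eed-KO cells, 2.61 in Dnmt1-KO cells and 0.55 in WT cells, and over the other 5 probes Krt19 stood at 0.24 ± 0.28 in Eed-KO cells, 0.70 ± 0.41 in Dnmt1-KO cells and 0.39 ± 0.17 in WT cells. Beyond the window the Dnmt1-KO signal went on to 3.29 at 741 bp and 2.42 at 935 bp, where Eed-KO probes read 0.88 and 0.14 and WT probes 0.38 and 0.12. The highest run of 6 Krt19 probes gave 0.40 in Eed-KO cells, 1.82 in Dnmt1-KO cells and 0.37 in WT cells. That run was chosen by its mean over the 3 genotypes, so these same values picked it.

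The remaining simple epithelial keratins were near 0. Krt20, a keratin of gut epithelium and urothelium, had levels of -0.0028 ± 0.34 in Eed-KO cells, 0.23 ± 0.54 in Dnmt1-KO cells and 0.09 ± 0.22 in WT cells. Krt23, a type I keratin, had 0.09 ± 0.17 in Eed-KO cells, -0.01 ± 0.61 in Dnmt1-KO cells and -0.11 ± 0.23 in WT cells, the lowest WT level of its class. In WT cells the order ran Krt7, Krt18, Krt19, Krt8, Krt20, Krt23, and each step but that between Krt19 and Krt8 was smaller than the SD over the probes of either neighbour.

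**Figure D2:**
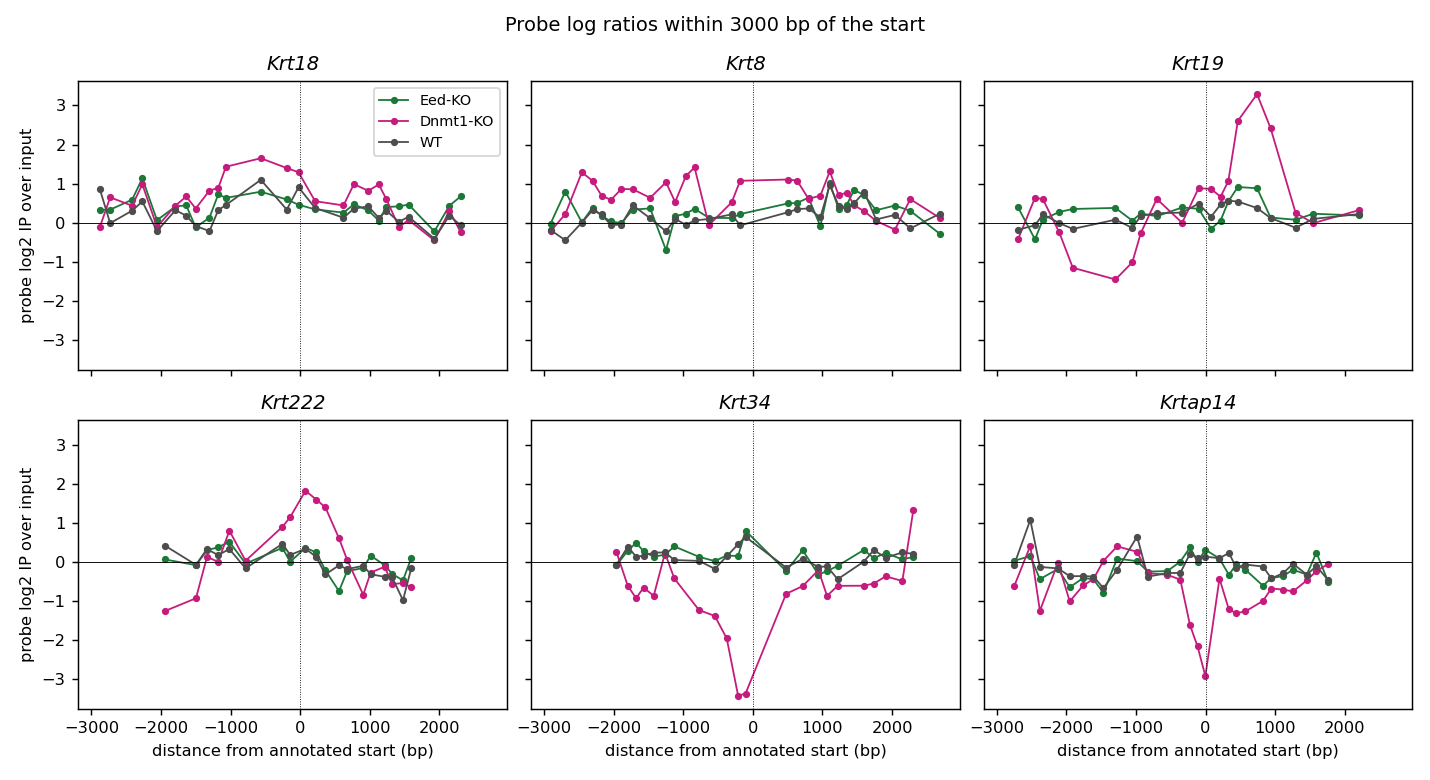
Log2 IP over input at every probe within 3000 bp of the annotated start of 6 members, with distance in bp along the gene's direction, in Eed-KO (green), Dnmt1-KO (magenta) and WT cells (grey). Dnmt1-KO probes stand above the other genotypes around Krt222 and after the Krt19 start, up to 3.29, and dip to -3.42 before the Krt34 start and to -2.92 at the Krtap14 start, whereas Eed-KO and WT traces stay close together.

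The 16 keratins of stratified epithelia had a median level of 0.05 in Eed-KO cells, 0.26 in Dnmt1-KO cells and 0.06 in WT cells, and none was bound. The highest in WT cells was Krt4, the type II keratin of mucosal stratified epithelia, at 0.51 ± 0.28 in Eed-KO cells, 0.66 ± 0.63 in Dnmt1-KO cells and 0.47 ± 0.34 in WT cells. Its type I partner Krt13 stood at 0.20 ± 0.17 in Eed-KO cells, 0.23 ± 0.18 in Dnmt1-KO cells and 0.33 ± 0.05 in WT cells. Among the keratins of differentiating epidermis, Krt1 stood at 0.31 ± 0.32 in Eed-KO cells, 0.83 ± 0.65 in Dnmt1-KO cells and 0.36 ± 0.51 in WT cells. Its partner Krt10 was near 0 throughout, at -0.11 ± 0.33 in Eed-KO cells, -0.02 ± 0.38 in Dnmt1-KO cells and -0.06 ± 0.26 in WT cells. Krt2, a type II keratin of the upper epidermis, had 0.07 ± 0.16 in Eed-KO cells, 0.14 ± 0.39 in Dnmt1-KO cells and 0.22 ± 0.29 in WT cells. In WT cells neither Krt4 and Krt13 nor Krt1 and Krt10 differed by more than the larger of their SDs.

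The basal keratins had no enrichment in WT cells. Krt5 stood at -0.14 ± 0.32 in Eed-KO cells, -0.78 ± 0.67 in Dnmt1-KO cells and 0.04 ± 0.10 in WT cells. Its partner Krt14 stood at -0.06 ± 0.19 in Eed-KO cells, 0.29 ± 0.83 in Dnmt1-KO cells and -0.02 ± 0.23 in WT cells, so the pair lay on opposite sides of 0 in Dnmt1-KO cells. Krt15, another basal type I keratin, stood at -0.14 ± 0.27 in Eed-KO cells, -0.08 ± 0.28 in Dnmt1-KO cells and -0.10 ± 0.17 in WT cells, the lowest WT level of the stratified type I genes.

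Among keratins induced in wounded or activated epidermis, Krt6a and its partners Krt16 and Krt17 parted in Dnmt1-KO cells. Krt6a, the lowest stratified type II gene in WT cells, stood at -0.03 ± 0.28 in Eed-KO cells, -0.64 ± 0.46 in Dnmt1-KO cells and -0.06 ± 0.08 in WT cells. Krt16 stood at -0.09 ± 0.24 in Eed-KO cells, 0.59 ± 0.45 in Dnmt1-KO cells and -0.04 ± 0.17 in WT cells. Krt17 stood at 0.06 ± 0.20 in Eed-KO cells, 0.96 ± 0.44 in Dnmt1-KO cells and 0.28 ± 0.33 in WT cells. In Dnmt1-KO cells both type I genes were thus above WT at all 6 probes and Krt6a below WT at all 6. The remaining type II genes of the class ran as follows in Eed-KO, Dnmt1-KO and WT cells. Krt79 had 0.27, 0.62 and 0.26, Krt77 had 0.12, -0.68 and -0.02, and Krt78 had -0.07, 0.98 and -0.04. Of the type I genes, Krt9, the keratin of footpad epidermis, had 0.16, -0.21 and 0.17, and Krt42 had 0.04, 0.99 and 0.07.

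The 7 keratins of the inner root sheath and companion layer of the hair follicle had a median of 0.0011 in Eed-KO cells, -0.0089 in Dnmt1-KO cells and 0.04 in WT cells. Krt27 had the highest WT level, with 0.39 ± 0.40 in Eed-KO cells, 0.07 ± 0.38 in Dnmt1-KO cells and 0.21 ± 0.29 in WT cells. Krt71 stood at -0.06 ± 0.15 in Eed-KO cells, 0.78 ± 0.43 in Dnmt1-KO cells and 0.12 ± 0.23 in WT cells. Krt25 stood at 0.34 ± 0.26 in Eed-KO cells, 0.59 ± 0.44 in Dnmt1-KO cells and 0.04 ± 0.20 in WT cells. The class divided in Dnmt1-KO cells, with Krt71 and Krt25 above 0.5 and Krt72 and Krt74 below -0.5. Krt72 stood at 0.0011 ± 0.24 in Eed-KO cells, -0.96 ± 0.40 in Dnmt1-KO cells and 0.11 ± 0.16 in WT cells. Krt74, the lowest in WT cells, stood at -0.06 ± 0.09 in Eed-KO cells, -0.79 ± 0.29 in Dnmt1-KO cells and -0.10 ± 0.12 in WT cells. Krt75, the companion layer keratin, was near 0 in all, at -0.03 ± 0.23 in Eed-KO cells, -0.13 ± 0.35 in Dnmt1-KO cells and 0.03 ± 0.11 in WT cells, as was Krt73.

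The 11 hair keratins had a median of 0.04 in Eed-KO cells, 0.01 in Dnmt1-KO cells and -0.0017 in WT cells. Krt87, listed in the file under the older symbol Krt2-25, had the highest levels of the class, 0.62 ± 0.61 in Eed-KO cells, 1.29 ± 0.86 in Dnmt1-KO cells and 0.52 ± 0.26 in WT cells. It was followed in WT cells by Krt34, a type I hair keratin, with 0.20 ± 0.34 in Eed-KO cells, -1.93 ± 1.23 in Dnmt1-KO cells and 0.17 ± 0.33 in WT cells. The Dnmt1-KO value of Krt34 was the lowest of the family. Krt82, a keratin of the hair cuticle, had 0.04 ± 0.22 in Eed-KO cells, 0.02 ± 0.53 in Dnmt1-KO cells and 0.13 ± 0.16 in WT cells. Krt85 and Krt35, made early in the hair shaft, had -0.15 ± 0.46 and 0.13 ± 0.29 in Eed-KO cells, -0.03 ± 0.39 and -0.65 ± 0.62 in Dnmt1-KO cells, and -0.08 ± 0.27 and -0.02 ± 0.29 in WT cells. Krt31, of the hair cortex, had -0.28 ± 0.22 in Eed-KO cells, 0.11 ± 0.27 in Dnmt1-KO cells and -0.21 ± 0.16 in WT cells. Hair keratins apart from Krt87 therefore lay at or below 0.30 in every genotype.

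Krt39, another hair keratin, had the lowest WT level of all members, with 0.30 ± 0.23 in Eed-KO cells, -0.59 ± 0.38 in Dnmt1-KO cells and -0.66 ± 1.95 in WT cells. That WT value rested on 1 spot, the printed probe 376 bp after the start, which read -4.60 with an IP signal of 24.3 that was not well above background and an input signal of 598. The same probe had an IP signal of 3338 and an input signal of 3496 in Eed-KO cells, so both channels were low on the WT array. Over the other 5 probes Krt39 stood at 0.37 ± 0.17 in Eed-KO cells, -0.66 ± 0.38 in Dnmt1-KO cells and 0.13 ± 0.32 in WT cells. Krt222, a keratin-like gene of the type I cluster outside these classes, stood at 0.0007 ± 0.43 in Eed-KO cells, 1.24 ± 0.45 in Dnmt1-KO cells and 0.12 ± 0.28 in WT cells. Its Dnmt1-KO probes were highest just after the start, at 1.82 and 1.60.

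The 22 keratin-associated promoters were the lowest class, with a median of -0.08 in Eed-KO cells, -0.45 in Dnmt1-KO cells and -0.01 in WT cells. With the trend on GC content removed, the class was lowest in Dnmt1-KO cells only, at -0.19. In Eed-KO cells its median was then -0.03, above stratified epithelial at -0.04 and inner root sheath at -0.08. In WT cells it was 0.04, above stratified epithelial, inner root sheath and hair genes at -0.01, 0.01 and -0.02. Only 2 of the 22 were above 0 in Dnmt1-KO cells, against 75.7% of all promoters. In Eed-KO cells 6 were above 0, against 64.1%, and in WT cells 10, against 70.3%. The highest in WT cells was Krtap5-5, with 0.14 ± 0.26 in Eed-KO cells, 0.69 ± 0.47 in Dnmt1-KO cells and 0.13 ± 0.36 in WT cells. Krtap5-4 and Krtap19-5 came next, with -0.05 and 0.04 in Eed-KO cells, -0.26 and -0.93 in Dnmt1-KO cells, and 0.10 and 0.08 in WT cells. The lowest in WT cells was Krtap6-1, with -0.36 ± 0.30 in Eed-KO cells, -0.65 ± 0.74 in Dnmt1-KO cells and -0.39 ± 0.29 in WT cells. Krtap14 had the lowest Dnmt1-KO level of the class, -1.47 ± 0.98, against 0.07 ± 0.25 in Eed-KO cells and 0.08 ± 0.19 in WT cells. Of the 132 probes in these windows, 50 had an IP signal not well above background in Dnmt1-KO cells, against 15 of 246 in the windows of the keratins. The part of dim signal in the low levels was not tested.

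Eed-KO and WT cells differed little at these genes. The median difference, Eed-KO minus WT, was -0.04 over the members and -0.06 over all promoters. No member was higher by 1 or more, as were 0% of all promoters, and none was lower by 1 or more, against 0.0059% of all promoters. By class, the median difference was -0.06 for simple epithelial, -0.04 for stratified epithelial, 0.04 for inner root sheath, 0.03 for hair and -0.05 for keratin-associated genes. In 22 of 63 members the difference was above 0, against 35.7% of all promoters. At a difference of 0.5, 1 member, Krt39, was higher, against 0.242% of all promoters, and none was lower, against 0.537%.

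A difference of one direction at all 6 probes was seen at 3 of the 63 members between Eed-KO and WT cells, against 10.9% of all promoters. Krt25 was higher in Eed-KO cells by 0.30 ± 0.09 and Krt39 by 0.95 ± 0.72, and Krt71 was lower, at -0.18 ± 0.06. Without the 1 WT spot described above, the difference at Krt39 was 0.24 ± 0.09 over 5 probes. Krt8 was 0.15 ± 0.06 higher in Eed-KO cells at 5 of 6 probes, while its neighbour Krt18 differed by -0.05 ± 0.11.

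**Figure D3:**
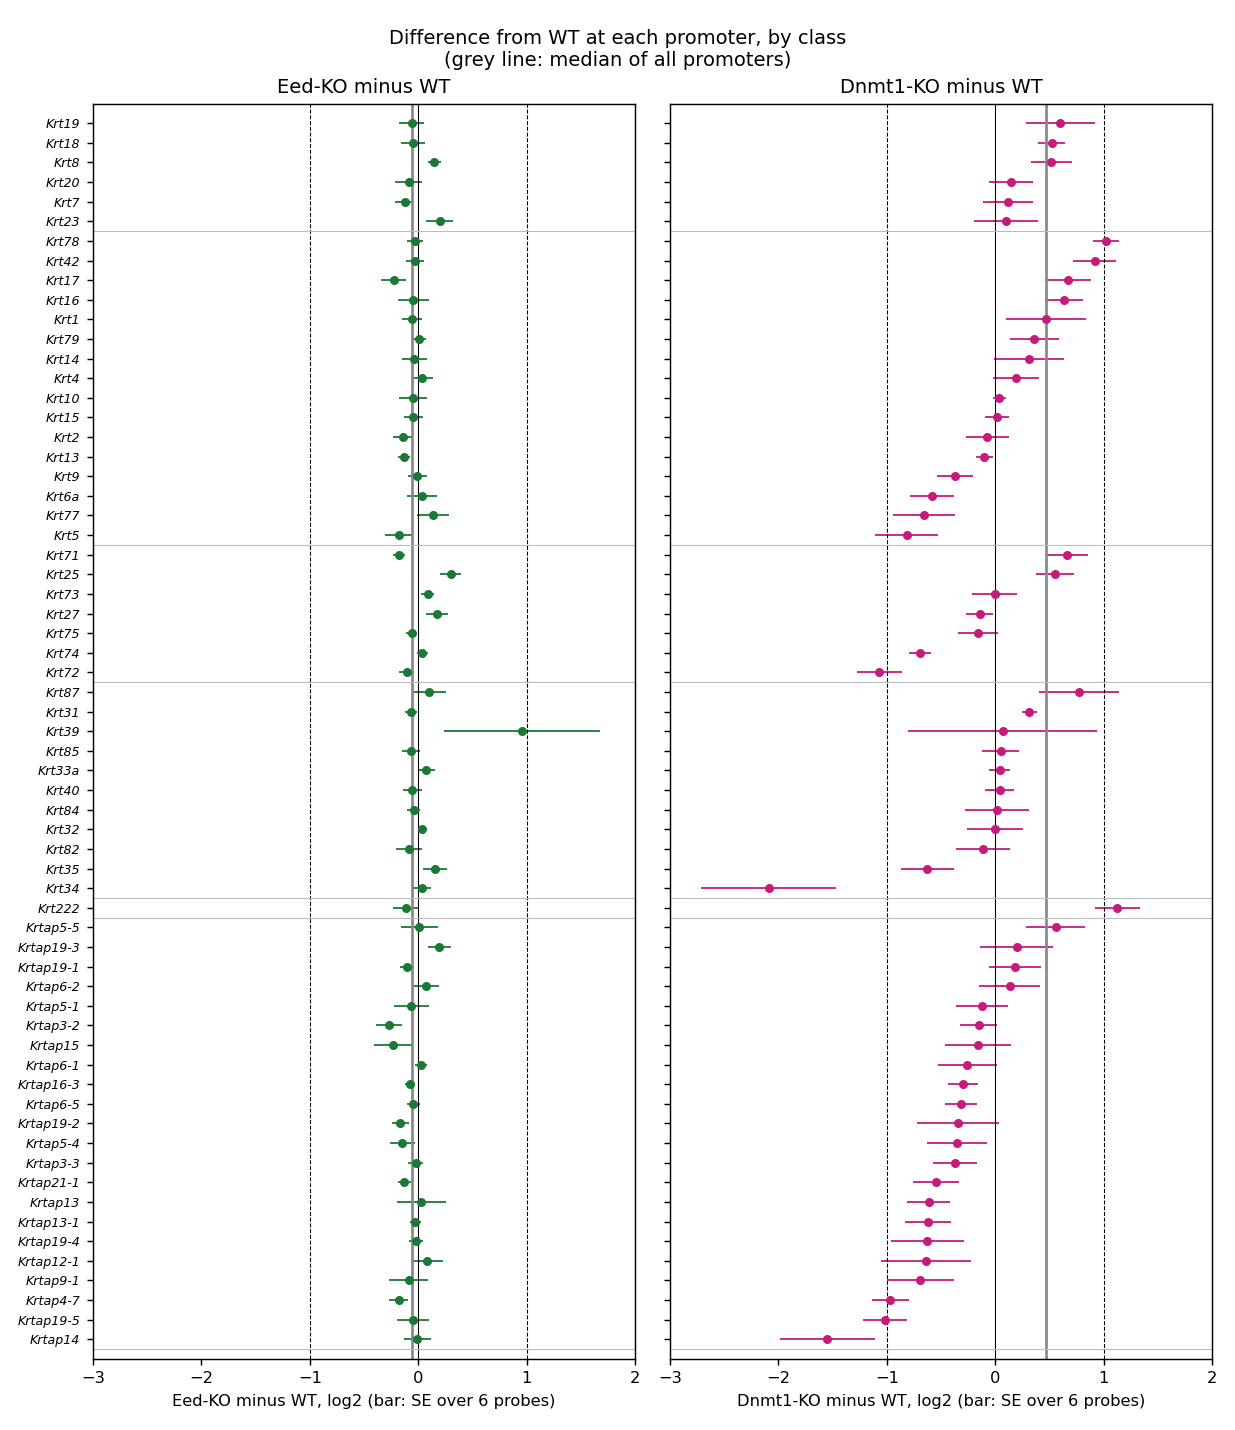
Difference in level at each of the 63 promoters, Eed-KO minus WT (left) and Dnmt1-KO minus WT (right), on the log2 scale with the SE over 6 probes, in blocks from top to bottom of simple epithelial, stratified epithelial, inner root sheath, hair, other keratin and keratin-associated genes. Apart from Krt39, Eed-KO differences lie between -0.27 and 0.30, whereas Dnmt1-KO differences run from -2.09 at Krt34 to 1.12 at Krt222 and mostly lie left of the all-promoter median of 0.46.

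Dnmt1-KO cells differed from WT cells in both directions at the keratin family, while promoters in general were higher in Dnmt1-KO cells. The median difference, Dnmt1-KO minus WT, was -0.01 over the members and 0.46 over all promoters, and the sign of the members' median turned to 0.011, 0.15 and 0.013 with normexp background correction, with the highest run of probes as the window and with arrays centred on the mode. The difference was above 0 in 30 of the 63 members, against 74.8% of all promoters. It was 1 or more in 2 members, Krt222 and Krt78, against 18.7% of all promoters, and -1 or less in 4, against 1.35% of all promoters. Those 4 were Krt34, Krtap14, Krt72 and Krtap19-5. At a difference of 0.5, 12 members were higher, against 47.8% of all promoters, and 16 lower, against 8.09%. With the arrays set to 1 spread, 0 members were higher by 0.5 and 4 lower, against 788 and 300 of the 16956 promoters. A level of -1 or less was reached in Dnmt1-KO cells by Krt34 and Krtap14, 2 of the 63, against 2.12% of all promoters.

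Among the higher members, Krt222 differed by 1.12 ± 0.21 and Krt78 by 1.02 ± 0.12, each at all 6 probes. Krt42 followed with 0.92 ± 0.20, Krt17 with 0.67 ± 0.21, Krt71 with 0.66 ± 0.19 and Krt16 with 0.63 ± 0.17, again at all 6 probes. In all, 18 of the 63 members differed in one direction at all 6 probes, 9 higher and 9 lower, against 37.7% of all promoters. All 6 simple epithelial keratins were above WT, by a median of 0.33, from 0.10 ± 0.29 at Krt23 to 0.60 ± 0.32 at Krt19, where 74.8% of all promoters were above WT. With the arrays set to 1 spread 4 of the 6 were above WT, and Krt7 and Krt18 differed by -0.24 and -0.05. With the GC trend removed 4 of the 6 were above WT as well. As reported, Krt18 was higher by 0.52 ± 0.13 and Krt8 by 0.52 ± 0.19, close to the 0.46 of all promoters, and with 1 spread Krt8 differed by 0.12.

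Among the lower members, Krt34 differed by -2.09 ± 0.62, and only 2 of the 16956 promoters, Krt34 included, had a difference that low. Its 2 lowest probes lay 212 and 105 bp before the start and read -3.42 and -3.37 in Dnmt1-KO cells, 0.15 and 0.80 in Eed-KO cells and 0.45 and 0.64 in WT cells. The IP signal was not well above background at 2 of its 6 probes in Dnmt1-KO cells. Within 3000 bp of the start, 19 of 22 Krt34 probes were below 0 in Dnmt1-KO cells and 20 were below WT, most of them by far less than those 2. Krtap14 differed by -1.55 ± 0.44, with its lowest probe, at -2.92, 2 bp before the start, and 22 promoters had a difference as low. Krt72 differed by -1.07 ± 0.21 and Krtap19-5 by -1.02 ± 0.20, each below WT at all 6 probes. No member was lower by 1 or more with the highest run over 3 genotypes as the window, and none was higher by 1 or more with normexp, with the arrays set to 1 spread or with all probes within 1000 bp of the start.

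The classes were ordered in this comparison. The median of Dnmt1-KO minus WT was 0.33 for simple epithelial, 0.11 for stratified epithelial, -0.14 for inner root sheath, 0.04 for hair and -0.35 for keratin-associated genes, and all lay below the 0.46 of all promoters. Only 4 of 22 keratin-associated genes were above 0. With arrays set to 1 spread, the medians were 0.03, 0.02, -0.09, 0.01 and -0.13 for those classes, and 0.08 for all promoters. With the trend on GC content removed as well, they were 0.02, -0.03, -0.13, -0.01 and -0.11, and 0.04 for all promoters. The simple epithelial class lay highest and above 0, and the inner root sheath and keratin-associated classes below 0, under all 3 of these settings, with sizes at most 0.13 once the spreads were equal. With the highest run over 3 genotypes as the window, the inner root sheath median was 0.30 instead, and with the highest run over WT and Eed-KO the hair median was -0.29. With 1 spread, Krt34 was the 1 member still lower by 1 or more, at -1.05, against 0.0177% of all promoters, and no member was higher by 1 or more, against 0.0236%.

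**Figure D4:**
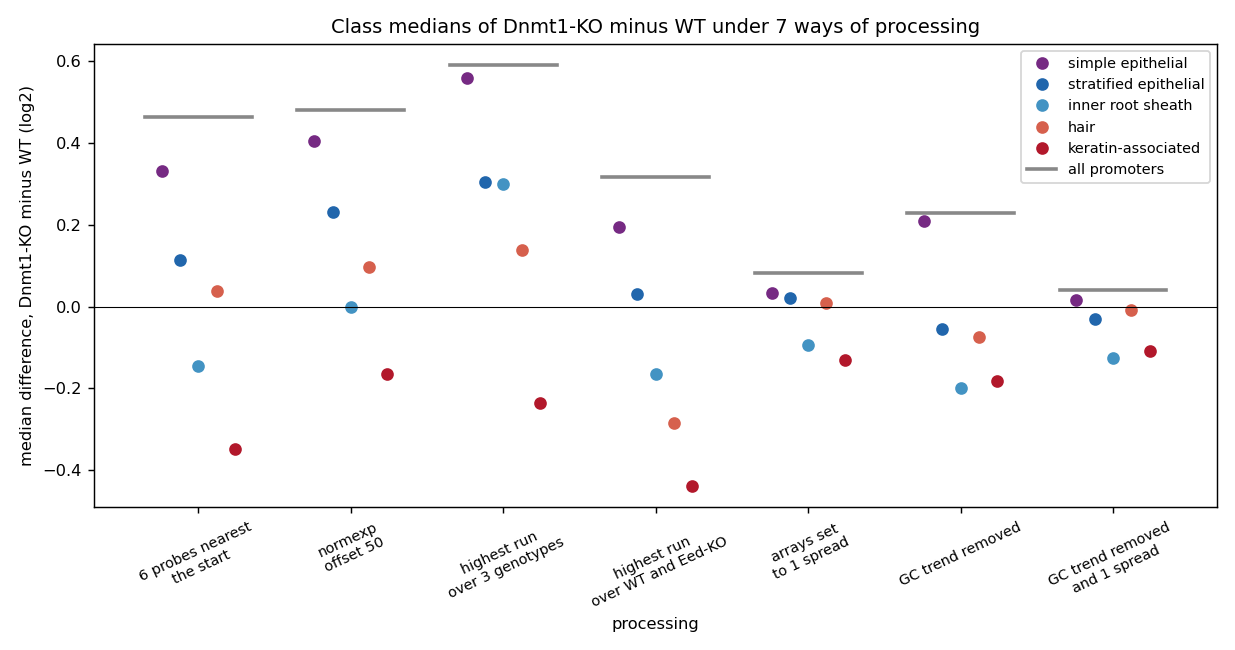
Median difference, Dnmt1-KO minus WT (log2), of the 5 larger keratin classes (points) and of all promoters (grey bars) under 7 ways of processing the same arrays. In each, all 5 classes lie below all promoters and the simple epithelial class is the highest, while setting the arrays to 1 spread puts it at 0.03, against 0.33 without.

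Input signal also differed between the Dnmt1-KO and WT arrays. Relative to each array's median, the input of Dnmt1-KO minus WT had a median of 0.71 over the members, 1.66 for simple epithelial and -1.10 for keratin-associated genes, and 1.25 over all promoters. The same difference between Eed-KO and WT had a median of 0.03 over the members and 0.06 over all promoters. At Krt72 the Dnmt1-KO input was 4.41 above WT on this scale, and 16 of the 16956 promoters were as high. Across the 63 members, the Dnmt1-KO minus WT difference in input followed the GC content of the probes with a Pearson r of 0.86, and across all promoters with an r of 0.78, given as a description over windows that share arrays. The input difference and the level difference had an r of 0.11 across the members and of 0.49 across all promoters. The part of input signal in the Dnmt1-KO levels was not tested.

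Along the chromosomes, 20 members lay on chromosome 15, the type II cluster with Krt18, and 25 on chromosome 11, the type I cluster with Krtap genes inside it. On chromosome 15 the order ran from Krt7 and Krt87 at one end to Krt8 and Krt18 at the other, and these 4 held the ends of the cluster with WT levels of 0.54, 0.52, 0.21 and 0.54. Between them, the 10 genes from Krt85 to Krt73 had WT levels of at most 0.13, at Krt82, whereas Krt2, Krt1, Krt4 and Krt79, also inside the cluster, had 0.22, 0.36, 0.47 and 0.26, above Krt8. In Dnmt1-KO cells, Krt4, Krt79, Krt78, Krt8 and Krt18, neighbours in that order, ran 0.66, 0.62, 0.98, 0.73 and 1.06, and the run from Krt6a to Krt72 held 4 negative values and the positive Krt71. On chromosome 11, Krt34 at -1.93 lay between Krt33a, at 0.16, and Krt31, at 0.11, so its low level was not shared by its neighbours. At the far end, Krt14, Krt16, Krt17 and Krt42 ran 0.29, 0.59, 0.96 and 0.99 in Dnmt1-KO cells. The 14 keratin-associated genes on chromosome 16 had a median of -0.06 in Eed-KO cells, -0.48 in Dnmt1-KO cells and -0.01 in WT cells.

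**Figure D5:**
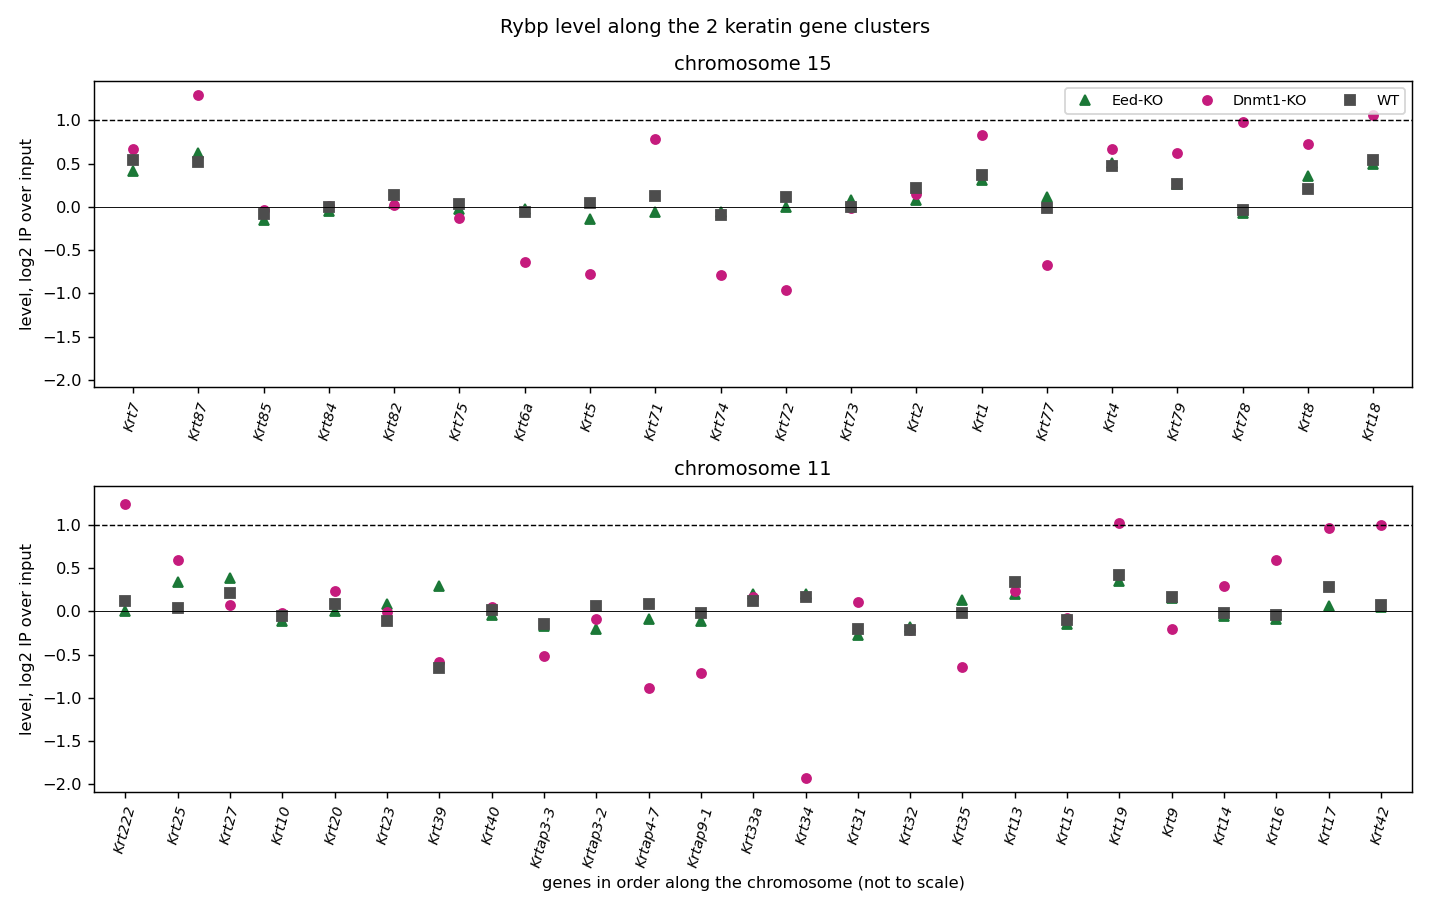
Level (log2 IP over input) of the members on chromosome 15 (top) and chromosome 11 (bottom), in gene order and not to scale, in Eed-KO (triangles), Dnmt1-KO (circles) and WT cells (squares), with the bound level dashed. Eed-KO and WT symbols overlap at most genes, and Dnmt1-KO values change sign along both clusters, with 2 bound members on each.

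The promoters of the family were poor in CpG. The probes of a member's window held 1.02 CpG per 100 bases at the median, where the windows of all promoters held 2.58, and those of the keratin-associated genes 0.56. As a description, level followed CpG content across the 63 members. Pearson r was 0.59 in Eed-KO cells, 0.48 in Dnmt1-KO cells and 0.50 in WT cells. Across all promoters it was 0.39, 0.64 and 0.52. Within a band of CpG content, the 12 members with at least 2 CpG per 100 bases had a Dnmt1-KO median of 0.45, against 1.06 for all promoters of that band, and 3 of the 12 were bound, against 53.7%. At 1 to 2 per 100 bases, 20 members had 0.11, against 0.30. Under 1, 31 members, 19 of them keratin-associated, had -0.33, against -0.32. In Eed-KO cells the same bands gave 0.17, 0.07 and -0.06 for the members, against 0.23, 0.05 and -0.11 for all promoters. In WT cells they gave 0.13, 0.08 and -0.02 for the members, against 0.32, 0.06 and -0.10. In the CpG-rich band the members' median thus lay below that of all promoters in each genotype. That band has no upper limit, and CpG content was not matched within it. Members reached 4.23 CpG per 100 bases at most, and all promoters 14.07.

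RefSeq's promoter table held 48 of the 63 members, 28 keratins and 20 keratin-associated genes. They had a median of 3.5 CpGs per promoter of 300 bases, against 7 over the 32841 promoters of the table. The letters TATAAA, on either strand, were in 14 of 28 keratin and 13 of 20 keratin-associated promoters, against 13.6% of all. Of the promoters printed above, those of Krt8 and Krt34 hold TATAAA and those of Krt18 and Krtap14 do not. GGGCGG, on either strand, was in 2 of the 48, against 35.7%, and CACGTG, which reads the same on both strands, in 5 of the 48, against 7.15%. These motifs share no stretch in which 1 match implies another. The Krt7 promoter held 21 CpGs.

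Other filament genes and genes that act with keratins were measured on the same arrays, where 2% of all promoters were bound in Eed-KO cells, 34.9% in Dnmt1-KO cells and 1.86% in WT cells. Of 15 other intermediate filament genes, 1 was bound in Eed-KO cells, 11 in Dnmt1-KO cells and 1 in WT cells, with medians of 0.64, 1.38 and 0.61. Nefl, the light neurofilament subunit, was the 1 bound in WT cells, with 1.82 ± 0.39 in Eed-KO cells, 2.88 ± 1.15 in Dnmt1-KO cells and 1.03 ± 0.33 in WT cells. Vim, the filament protein of mesenchymal cells, stood at 0.64 ± 0.38 in Eed-KO cells, 1.21 ± 0.62 in Dnmt1-KO cells and 0.48 ± 0.28 in WT cells. Of 19 transcription factors that regulate keratin genes, 4 were bound in Eed-KO cells, 13 in Dnmt1-KO cells and 6 in WT cells, among them Grhl2, with 1.65 ± 0.46 in Eed-KO cells, 1.79 ± 0.49 in Dnmt1-KO cells and 1.24 ± 0.32 in WT cells. Ovol1 stood at 1.34 ± 0.70 in Eed-KO cells, 3.18 ± 1.05 in Dnmt1-KO cells and 1.23 ± 0.44 in WT cells. Trp63, the master regulator of stratified epithelia, was not bound, with -0.10 ± 0.46 in Eed-KO cells, -0.59 ± 0.44 in Dnmt1-KO cells and 0.0049 ± 0.67 in WT cells.

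Of 9 genes for desmosomes and keratin linkers, 0 were bound in Eed-KO cells, 6 in Dnmt1-KO cells and 0 in WT cells. Over all promoters, 2%, 34.9% and 1.86% were bound in those genotypes. The medians of the 9 genes were 0.17, 1.31 and 0.30. The 9 measured genes of the cornified envelope, the protein shell of dead epidermal cells, had none bound in any genotype, with median levels of -0.07 in Eed-KO cells, -0.28 in Dnmt1-KO cells and 0.04 in WT cells and a median of 0.30 CpG per 100 bases. The median was 5.19 CpG per 100 bases in the other intermediate filament genes and 3.57 in the regulators. Of the 2 genes excluded by name, Krtcap2 stood at 0.99 in Eed-KO cells, 2.27 in Dnmt1-KO cells and 1.05 in WT cells, and Krtcap3 at 0.52 in Eed-KO cells, 1.67 in Dnmt1-KO cells and 0.44 in WT cells. Krt12, the corneal keratin that the file lists under another symbol, had 0.31 in Eed-KO cells, 0.66 in Dnmt1-KO cells and 0.13 in WT cells. Of marker genes of the cells that could be present, bound promoters in Eed-KO, Dnmt1-KO and WT cells numbered 0, 4 and 0 of the 9 measured for ES cells, 3, 5 and 0 of 9 for feeder fibroblasts and 0, 4 and 0 of 5 for epithelial cells. With the arrays set to 1 spread, 1.32% of all promoters were bound in Eed-KO cells, 2.69% in Dnmt1-KO cells and 1.86% in WT cells. The numbers bound in Eed-KO, Dnmt1-KO and WT cells were then 1, 2 and 1 for other intermediate filaments. They were 3, 2 and 6 for the regulators, 1, 1 and 0 for feeder markers and 0, 1 and 0 for epithelial markers. For desmosomes and linkers and for ES cell markers they were 0 in each genotype.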

How the data were processed

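The deposited files hold Cy5 and Cy3 intensities per spot that, per the file headers, Agilent Feature Extraction corrected for background and dye, with software version 9.5.3.1 and scanner G2505B for Eed-KO and WT and version 10.1.1.1 and scanner G2505C for Dnmt1-KO. Version 9.5.3.1 is the one in the submitters' processing notes. The authors' table of log10 ratios, Cy5 over Cy3, was an alternative. Its values equal the scanner ratios plus an offset for each array (within 0.001 at 99.0% of probes or more), and how the offset was set is not stated.

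From the deposited intensities, log2 IP over input was computed per probe and centred on the array's median of non-control probes, leaving out spots flagged as outliers (0.070% of probes). A window was the 6 usable neighbouring probes of a gene, within 3000 bp, centred nearest the annotated start, so that no measured value chose it. The highest run of probes was an alternative. No 2 members shared a probe of their windows. Beyond the windows a probe could be annotated to more than 1 member, as at Krtap14 and Krtap15. Coordinates and distances are those annotated in the Dnmt1-KO files. Symbols were updated by accession with RefSeq's GRCm38.p6 table, which held 61 of the 66 members.

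Members, classes, lists and thresholds were chosen with earlier results of these data known. The text names a fixed set of familiar keratins, the 3 highest and the lowest WT levels of each class, and the 3 highest and 3 lowest differences with all 6 probes in 1 direction, besides members counted in a threshold. In all, 19 alternatives were planned and 2 added after seeing the data. The number of arrays limits the precision. Window finding was tested on simulated data. Software was Python 3.11.15, numpy 2.4.6, pandas 2.3.3, statsmodels 0.14.6, matplotlib 3.10.9, R 4.3.3 and limma 3.58.1.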

Additional observations from a re-analysis of the deposited data

How the results depend on the processing

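The median difference of the keratin family between Eed-KO and WT cells kept its sign under every alternative that gave a value, and no alternative but the smaller threshold gave a member higher or lower in Eed-KO cells. The Dnmt1-KO results depended on the processing. The number of members bound in Dnmt1-KO cells, 4 as reported, was 7 with normexp, with 4 probes and with centring on the mode, 8 with the highest run over 3 genotypes, 2 with the GC trend removed, 0 with arrays set to 1 spread, with or without the GC trend removed, 16 at a bound level of 1.5-fold, 0 at 3-fold and 0 on array design 1 alone, which holds 3 members. Members higher by 2-fold in Dnmt1-KO than in WT cells, 2 as reported, numbered 0 with normexp, 0 with all probes within 1000 bp, 4 with the highest run over 3 genotypes, 4 with 4 probes, 1 with the GC trend removed, 0 with 1 spread, 0 with both, and 4 with Krtcap2 and Krtcap3 added. Members lower by 2-fold, 4 as reported, numbered 2 with normexp, 0 with the highest run, 1 with 1 spread and 1 with both. The shares of all promoters moved with the setting too. Bound in Dnmt1-KO cells were 34.9% as reported and 2.69% with 1 spread. Higher were 18.7% and 0.0236%, and lower 1.35% and 0.0177%. The counts under the other settings are given without such a share and describe the processing, not the members. A threshold of 0.5 gave 1 member higher in Eed-KO cells, and 12 higher and 16 lower in Dnmt1-KO cells. At 1.5-fold 1 member was bound in Eed-KO cells, and adding the Krtcap genes gave 1 bound in WT cells. The median Dnmt1-KO minus WT changed sign to 0.0109 with normexp, 0.146 with the highest run over 3 genotypes and 0.0129 with centring on the mode. Krt72 changed sign from lower to 0.3009 with the highest run over 3 genotypes, which takes other probes. The authors' value table gave the values reported. Apart from the thresholds and the lists of genes, whose construction fixes the change, the cause was not tested. No paired analysis was possible because each promoter has 1 array per genotype. With 1 array per genotype, differences between cultures were not measured, and in Dnmt1-KO cells 50 of the 132 probes at keratin-associated genes had an IP signal not well above background, whose part in their levels was not tested.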
